A study of Mus musculus with 45 samples.

Results

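Mouse Wfdc2, Wfdc10, Slpi, Pglyrp1, Lcn2, Defb1 and Defb28 encode secreted proteins of mucosal defence. They are 7 of the 24422 gene rows in the uterine count table, taken by symbol. They were chosen by the levels measured in these same samples, across tissues and genotypes, so their group levels and the differences between tissue layers are given as description. STRT RNA-seq, which captures transcript 5′ ends with molecular identifiers, was applied to 3 samples of each female. One horn was opened and its mucosa scraped off as the endometrium sample, what was left was the myometrium sample, and an unopened piece of horn was the uterus sample. The 6 groups, each of 7 CD-1 mice, were WT and Plag1KO uterus, endometrium and myometrium. Plag1 encodes a zinc finger transcription factor. All females, WT and KO alike, were sexually mature and superovulated, with 5 IU pregnant mare serum followed 2 days later by 5 IU hCG, and were killed on the next day. Every level therefore describes a hormone-stimulated uterus, and no unstimulated animals entered the comparisons. In the study's methods, superovulated females were also mated with WT males, except where unfertilised oocytes were collected. Mating of each mouse is not in the sample labels used here.

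The libraries held 256298 to 1222627 counts over genes. Plag1 itself gave 2 counts over the 21 WT samples and 5 counts over the 21 KO samples, never more than 1 in a sample, which is too few to check the genotype labels. Epithelial and smooth muscle markers followed the labelled layers, with 3 samples standing apart. The myometrium of WT mouse 5 had a summed level of 8 epithelial markers (keratins, Epcam, Cdh1 and claudins) of 1346 CPM, against 144 to 382 CPM in the other 6 WT myometria. The endometria of WT mouse 3 and KO mouse 13 had summed smooth muscle markers of 13303 and 13223 CPM, against 221 to 3580 CPM in the other 12. For WT myometrium, the means of Wfdc2, Wfdc10 and Lcn2 are accordingly given with and without mouse 5, which altered each by more than 1.5 times.

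Mucosal surfaces are guarded by small secreted proteins that act before adaptive immunity. Whey acidic protein (WAP) domains are compact, disulphide-bonded folds, and several WAP proteins inhibit serine proteases released by neutrophils and microbes. Pglyrp1 binds bacterial peptidoglycan, Lcn2 (lipocalin 2) captures the siderophores with which bacteria acquire iron, and beta-defensins are cationic peptides that disrupt microbial membranes. In the uterus the luminal and glandular epithelia are known sources of such proteins, and Lcn2 and Pglyrp1 are also stored in neutrophil granules.

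On the NCBIM37 assembly, 5 of the 7 genes lie on chromosome 2. Slpi (minus strand, 164179806 to 164214831), Wfdc2 (plus strand, 164387913 to 164394010) and Wfdc10 (plus strand, 164481440 to 164482868) fall within 303.1 kb, in a WAP gene cluster. Lcn2 (minus strand, 32240153 to 32243317) and Defb28 (plus strand, 152343991 to 152347183) are elsewhere on chromosome 2. Pglyrp1 is on chromosome 7 (plus strand, 19470039 to 19475787), and Defb1 is on chromosome 8 (plus strand, 22887071 to 22905657). Wfdc10 overlaps Wfdc9 on the opposite strand, so a read from the shared stretch can be assigned to Wfdc10 with certainty only if counting used strand, which is not given in the sources used here. No other gene matched a transcript of these genes at 90% identity over 50 bases.

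Because the reads mark transcript starts, the 250 bases upstream of 4 RefSeq start sites are shown, from GRCm38.p6. Lcn2 (chr2:32387740-32387989, minus strand) and Pglyrp1 (chr7:18884440-18884689, plus strand) are shown because their levels moved together across mice, Wfdc2 (chr2:164562465-164562714, plus strand) because it was high throughout the endometrium, and Slpi (chr2:164356508-164356757, minus strand) because its tissue pattern differed from that of the other 3. Capitals mark matches, on either strand, to the PLAG1 consensus (Lcn2 and Wfdc2) and to the kappa B consensus (Pglyrp1).
Lcn2: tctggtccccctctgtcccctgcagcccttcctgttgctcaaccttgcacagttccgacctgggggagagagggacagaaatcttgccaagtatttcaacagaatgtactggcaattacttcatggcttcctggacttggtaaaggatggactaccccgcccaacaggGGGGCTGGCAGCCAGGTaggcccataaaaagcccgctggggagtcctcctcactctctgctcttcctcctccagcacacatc
Pglyrp1: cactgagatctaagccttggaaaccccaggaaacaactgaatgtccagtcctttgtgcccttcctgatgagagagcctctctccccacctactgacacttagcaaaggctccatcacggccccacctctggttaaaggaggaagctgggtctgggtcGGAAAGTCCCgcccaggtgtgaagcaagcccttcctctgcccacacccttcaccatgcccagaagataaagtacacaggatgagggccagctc
Wfdc2: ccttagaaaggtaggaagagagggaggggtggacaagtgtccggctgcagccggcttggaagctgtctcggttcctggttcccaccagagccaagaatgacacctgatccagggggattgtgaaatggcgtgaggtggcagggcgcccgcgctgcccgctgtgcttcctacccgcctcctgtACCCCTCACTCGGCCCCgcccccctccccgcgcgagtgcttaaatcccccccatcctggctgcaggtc
Slpi: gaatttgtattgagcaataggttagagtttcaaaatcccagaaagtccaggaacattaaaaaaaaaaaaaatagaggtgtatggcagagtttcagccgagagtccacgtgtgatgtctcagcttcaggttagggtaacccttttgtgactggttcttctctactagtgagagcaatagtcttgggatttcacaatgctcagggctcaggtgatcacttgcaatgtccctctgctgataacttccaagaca
The PLAG1 consensus was present in 16.8% of the 32851 RefSeq promoters of the same length and in 3 of the 6 available here, Wfdc2, Wfdc10 and Lcn2. The 3 overlapping matches in Wfdc2 share the same stretch. The kappa B consensus, present in 3.9% of promoters, occurred in Pglyrp1 and Defb28. The half-site GGTCA, in 35.2% of promoters, occurred in Wfdc10 and, at 2 positions, in Defb28. None of the 6 windows held TATAAA (12.4% of promoters), the AP-1 site TGANTCA (6.75%) or the full estrogen response element (0.0639%). These are matches of letters only, and Slpi held none. For Defb1 no promoter was used here.

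Wfdc2, also called HE4, is a WAP protein made by reproductive tract epithelium. Its level in CPM (counts scaled to library size, normalised by trimmed mean of M values over all 42 samples) was high in uterus and endometrium and low in myometrium in both genotypes. In WT endometrium Wfdc2 ranged from 465 to 3701 CPM with a median of 2061 CPM. In KO endometrium it ranged from 1852 to 4415 CPM with a median of 2475 CPM. The lowest WT value came from mouse 3 and the lowest KO value from mouse 13, the endometria with the high smooth muscle sums, and the part of that admixture in the values was not tested. In myometrium the median of Wfdc2 was 216 CPM in WT (79.7 to 2011 CPM) and 239 CPM in KO (121 to 691 CPM). The highest WT myometrium was that of mouse 5, without which the WT mean fell from 461 to 203 CPM. In whole uterus the median was 1612 CPM in WT (1139 to 2632 CPM) and 1948 CPM in KO (1226 to 3427 CPM), between the layers or near the endometrium. Within mice, endometrium exceeded myometrium in 7 of 7 WT and 7 of 7 KO animals, with median ratios of 7.36 and 9.08. In such bulk samples, fewer cells of a type and less RNA per cell cannot be told apart.

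**Figure D1:**
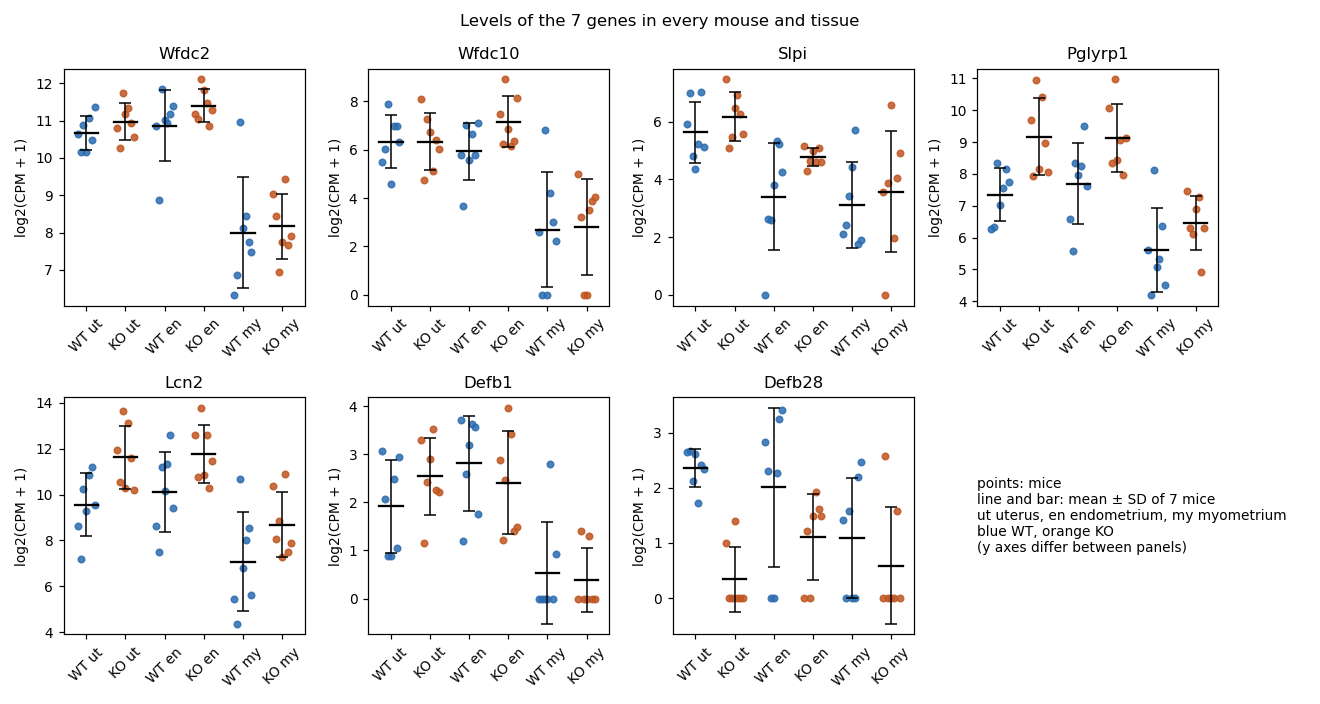
Levels of the 7 genes as log2(CPM + 1) for every mouse in the 6 groups, with mean and SD of 7 mice; blue is WT, orange is KO, and the y axes differ between panels. The group means of Wfdc2, Wfdc10, Pglyrp1 and Lcn2 are lower in myometrium than in uterus and endometrium. Some myometria lie within the uterine range of their genotype, that of WT mouse 5 for all of these genes. So do WT mice 8 and 10 and KO mice 2 and 11 for Lcn2 (260, 369, 1341 and 1889 CPM). The same holds for WT mouse 10 for Pglyrp1 (80.6 CPM) and KO mouse 2 for Wfdc10 (31.1 CPM). The group mean of Slpi is highest in whole uterus.

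Wfdc10, a second WAP gene of the same cluster, followed the same layers at lower counts. Its median was 54.6 CPM in WT endometrium (11.7 to 138 CPM) and 116 CPM in KO endometrium (70.6 to 482 CPM), and in WT mouse 3 it again was lowest. In myometrium the median was 4.98 CPM in WT and 10.3 CPM in KO, with no count in 2 mice of each genotype, and the highest WT value, 110 CPM, was again from mouse 5. The WT myometrium mean of 20.5 CPM became 5.57 CPM without that mouse. Whole uterus spanned 23.0 to 235 CPM in WT (median 79.6 CPM) and 25.5 to 273 CPM in KO (median 82.8 CPM), so that the ranges of uterus and endometrium overlapped widely. Endometrium exceeded myometrium in all 7 mice of each genotype.

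Slpi encodes secretory leukocyte protease inhibitor, a WAP protein that inhibits neutrophil elastase and has antimicrobial activity of its own. It had a different tissue pattern: the whole horn was higher than either of its layers. In WT uterus Slpi ranged from 19.6 to 132 CPM (median 37.0 CPM), and in KO uterus from 32.8 to 177 CPM (median 77.2 CPM). In endometrium the medians were 13.0 CPM in WT (0 to 39.5 CPM) and 24.3 CPM in KO (18.7 to 34.6 CPM). In myometrium they were 4.37 CPM in WT (2.37 to 51.2 CPM) and 13.7 CPM in KO (0 to 94.8 CPM). Fewer than 3 counts were found in 2 of 7 WT endometria, 3 of 7 WT myometria and 2 of 7 KO myometria. The uterus was above both layers of the same animal in 5 of 7 WT and 6 of 7 KO mice, and group means were 3.73 and 3.10 times those of endometrium. Endometrium exceeded myometrium in only 3 of 7 WT and 5 of 7 KO mice, so the layers did not separate beyond their spread.

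**Figure D2:**
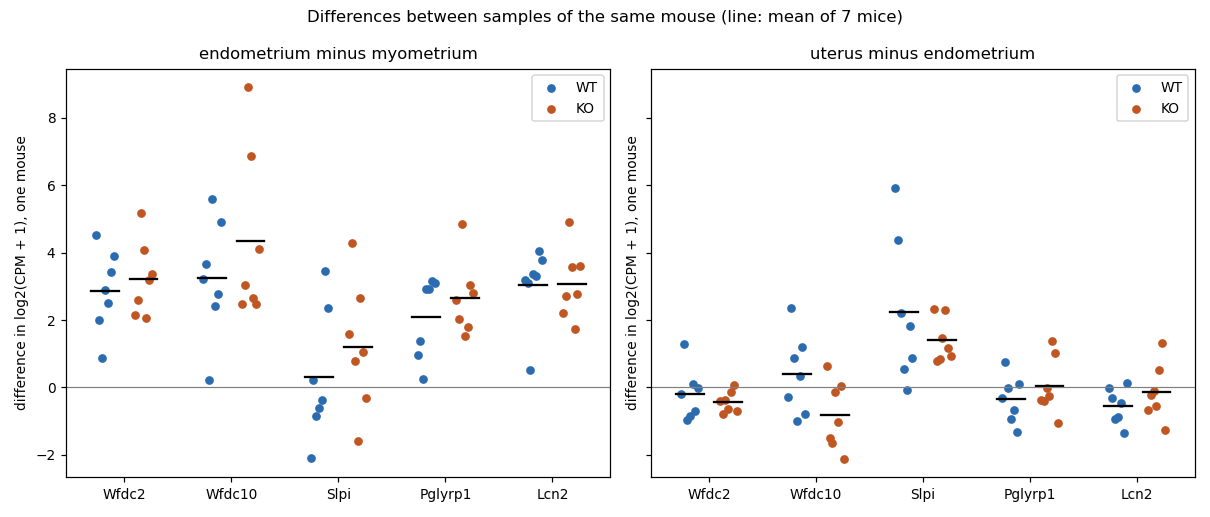
Differences in log2(CPM + 1) between samples of the same mouse, endometrium minus myometrium on the left and uterus minus endometrium on the right, for the 5 genes other than the beta-defensins; points are mice, lines are means of 7 mice, blue is WT and orange is KO. The 4 genes other than Slpi lie above 0 on the left in every mouse, and Slpi lies mostly above 0 on the right.

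Pglyrp1, the short peptidoglycan recognition protein, was lower in myometrium and varied between mice. In WT endometrium it ranged from 46.9 to 723 CPM (median 252 CPM) and in WT myometrium from 17.5 to 276 CPM (median 39.4 CPM). In KO endometrium it ranged from 249 to 2004 CPM (median 534 CPM) and in KO myometrium from 29.6 to 176 CPM (median 77.8 CPM). Uterus held 76.1 to 325 CPM in WT (median 187 CPM) and 242 to 1977 CPM in KO (median 502 CPM). The 2 highest KO uteri, 1977 and 1379 CPM, came from mice 6 and 11. The highest WT myometrium, 276 CPM, was that of mouse 5, and the next highest was 80.6 CPM in mouse 10. The WT myometrium mean of 73.7 CPM includes mouse 5. Endometrium exceeded myometrium in every mouse, with median ratios of 7.50 in WT and 6.09 in KO.

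Lcn2 had the widest span between animals among the genes with counts in every sample. In WT endometrium it ranged from 177 to 6155 CPM (median 1152 CPM) and in KO endometrium from 1235 to 13896 CPM (median 2823 CPM). In uterus it ranged from 144 to 2384 CPM in WT (median 737 CPM) and from 1180 to 12942.5 CPM in KO (median 3092 CPM). In myometrium it ranged from 19.7 to 1626 CPM in WT (median 110 CPM) and from 154 to 1889 CPM in KO (median 264 CPM). The same animals were high in more than one tissue: KO mice 6, 11 and 2 had the 3 highest uterine and endometrial KO values, and WT mouse 10 had the highest WT value in both. The highest WT myometrium was that of mouse 5, and the WT mean of 354 CPM became 142 CPM without it.

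In edgeR fits across all genes, 5 of the 7 genes (Wfdc2, Wfdc10, Pglyrp1, Lcn2 and Defb1) had an adjusted p under 0.05 with endometrium above myometrium in WT, and the same 5 in KO. Of all genes tested, 6.81% passed in that direction in WT and 10.6% in KO. In either direction, 24.8% and 31.0% had an unadjusted p under 0.05. Because these layer values were in view when the genes were chosen, nothing is read from the counts. The log2 differences (± SE) in WT were 2.22 ± 0.52 for Wfdc2, 1.94 ± 0.65 for Wfdc10, 1.92 ± 0.52 for Pglyrp1 and 2.44 ± 0.73 for Lcn2. In KO they were 3.09 ± 0.31, 3.93 ± 0.53, 2.88 ± 0.42 and 2.93 ± 0.57 in the same order. Slpi differed by 0.51 ± 0.62 in WT and 0.38 ± 0.53 in KO and did not pass. In the 2 WT mice of rows D to F alone Slpi differed by 3.30, with only 2 and 3 counts in their myometria. The WT count of 5 fell to 3, 2, 3 and 1 without WT mice 1, 7, 8 and 10 respectively, to 3 with DESeq2 and to 0 in the 5 WT mice of plate rows A to C alone.

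The genotype comparison asked whether loss of Plag1 altered these levels, and none of those tested passed in any tissue; in myometrium 6 of the 7 were tested, since Defb1 missed the count filter. No gene of any kind was called by edgeR in uterus, endometrium or myometrium (0% of 12959, 13004 and 12991 tested). DESeq2 called none of the 7 either. In edgeR 5.64%, 5.20% and 4.22% of genes had an unadjusted p under 0.05. So did 3 of the 7, 4 of the 7 and 0 of the 6 tested. The genes were chosen with these genotype levels in view, so nothing is read from these counts. Among the 5 genes other than the beta-defensins, Pglyrp1 and Lcn2 differed most in uterus. The mean of Pglyrp1 was 185 ± 97.0 CPM in WT and 784 ± 667 CPM in KO (SD, n = 7 mice each), a log2 difference of 2.06 ± 0.44 (SE) with an edgeR adjusted p of 0.387. The mean of Lcn2 was 1049 ± 815 CPM in WT and 4687 ± 4530 CPM in KO, a log2 difference of 2.13 ± 0.56 with an edgeR adjusted p of 0.570. For each gene 4 of the 7 KO uteri lay above the highest WT uterus and the other 3 lay inside the WT range. In DESeq2 the uterine adjusted p was 0.0825 for Pglyrp1 and 0.478 for Lcn2. Marker sums in uterus also differed between the genotypes. The median epithelial sum was 1755 CPM in WT and 2603 CPM in KO, and that of 12 neutrophil markers, Ltf left out, 21.6 and 48.4 CPM. That of 6 uterine gland markers was 2266 CPM in WT and 1294 CPM in KO. Members of a list did not all move alike. Mean Krt7 was 425 CPM in WT and 772 CPM in KO, and Krt19 147 and 286 CPM. Cldn3 was 378 and 355 CPM, Cldn4 16.9 and 14.0 CPM, and Cdh1 18.7 and 20.2 CPM. Of the gland markers, Prss29 was 2229 and 572 CPM and Prss28 547 and 83.9 CPM, but Ltf 627 and 957 CPM. The part of marker content in the differences of Pglyrp1 and Lcn2 was not tested.

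Plate position was uneven between genotypes, with 5 WT and 3 KO mice in rows A to C and 2 WT and 4 KO mice in rows D to F. The first set holds mice 1 to 8 and the second mice 9 to 14. Apart from some repeat libraries, each single row held a single tissue, so row and tissue cannot be told apart. In uterus KO was higher within both sets, by 2.66 and 1.24 on the log2 scale for Pglyrp1 and by 2.84 and 1.17 for Lcn2 (the first value of each pair from rows A to C). In endometrium the pooled differences were 1.40 ± 0.49 for Pglyrp1 (edgeR adjusted p = 0.856) and 1.36 ± 0.60 for Lcn2 (edgeR adjusted p = 0.937). There the rows disagreed: Pglyrp1 differed by 2.46 in rows A to C and -0.11 in rows D to F, and Lcn2 by 2.45 and -0.15. In myometrium the differences were 0.45 ± 0.42 for Pglyrp1 and 0.86 ± 0.62 for Lcn2 (edgeR adjusted p = 0.999894 for each). The WT group there includes mouse 5, whose myometrium was the highest in WT for both genes (276 and 1626 CPM). In rows D to F alone, with 2 WT and 4 KO mice, the myometrium fit called Lcn2 (1.62) and Slpi (3.60) among 49 of 12991 genes (0.377%), each with an edgeR adjusted p of 0.00113, and in rows A to C it called neither. That fit holds only 2 WT mice, with 2 and 3 Slpi counts. Its samples are among those on which the genes were chosen, so these calls are a description.

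The 3 WAP genes were compared in the same way. Wfdc2 was 0.29 ± 0.23 higher in KO on the log2 scale in uterus and 0.40 ± 0.30 in endometrium, and its ranges overlapped in all tissues. Wfdc10 had a mean of 76.2 ± 46.5 CPM in WT endometrium and 183 ± 152 CPM in KO endometrium (SD, n = 7 mice each), a log2 difference of 1.28 ± 0.46 with an edgeR adjusted p of 0.891, and 1.83 and 0.52 in rows A to C and in rows D to F. In uterus Wfdc10 differed by 0.08 ± 0.46, with the direction turning under spike-in scaling (-0.28) and in rows D to F (-0.55). Slpi differed by 0.43 ± 0.42 in uterus and 0.61 ± 0.44 in endometrium. In rows A to C and then rows D to F, the uterine differences were 0.43 and -0.0021 for Wfdc2 and 0.68 and -0.0451 for Slpi, and the endometrial ones 0.54 and 0.14 for Wfdc2 and 0.90 and 0.0698 for Slpi. In myometrium Wfdc2 and Wfdc10 differed by -0.47 ± 0.47 and -0.71 ± 0.72, and without WT mouse 5 by 0.77 and 1.11, so their direction there rested on that animal. Slpi in myometrium differed by 0.74 ± 0.67, and by -0.08 without KO mouse 9. A test of whether the layer difference itself depended on genotype called 0 of the 7 and 0 of 14314 genes (0%). An unadjusted p under 0.05 was found for 4.60% of genes and 1 of the 7, and nothing is read from that count either. The largest value was that of Wfdc10, 2.00 ± 0.95 with an edgeR adjusted p of 0.993, and it was 0.91 with the mouse as block.

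**Figure D3:**
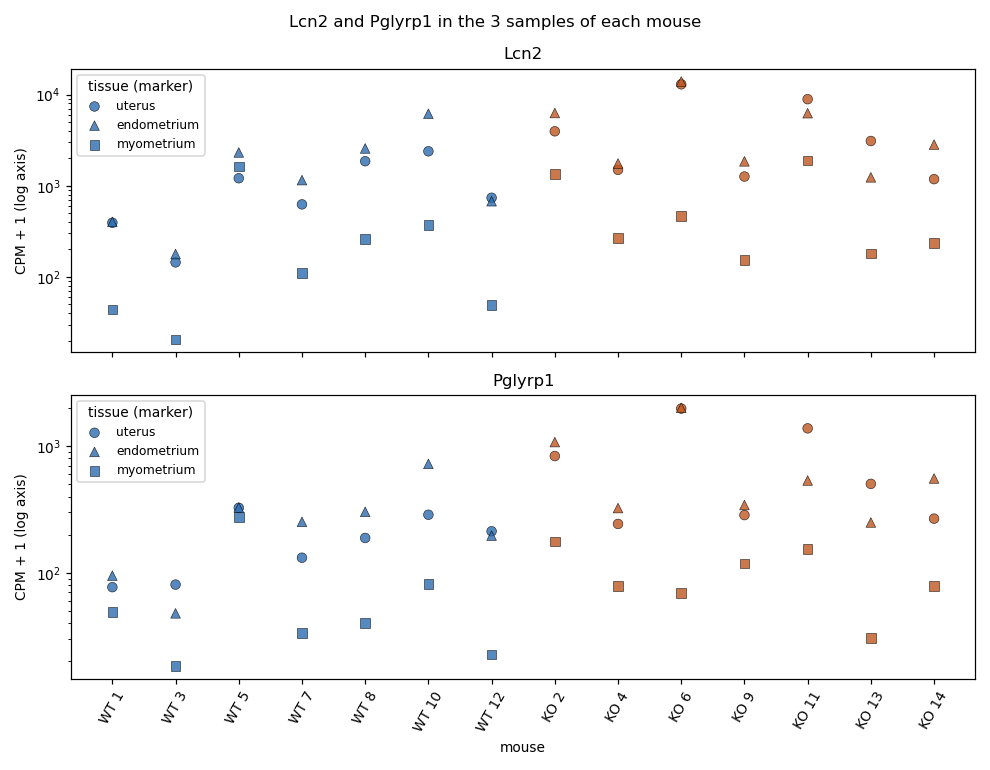
Lcn2 and Pglyrp1 in the 3 samples of each of the 14 mice, as CPM + 1 on a log axis; circles are uterus, triangles endometrium and squares myometrium, blue is WT and orange is KO. KO mice 2, 6 and 11 and WT mouse 10 are high in uterus and endometrium for Lcn2, and squares lie below triangles in every mouse.

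The order of mice was compared between tissues, on log2(CPM + 1) over 14 mice, for 15 relations of 5 genes. For Lcn2, uterus and endometrium correlated with Pearson's r = 0.912 (permutation p = 1e-05, the smallest that 100000 resamples can give; Benjamini-Hochberg adjusted p = 0.00015) and Spearman's rho = 0.837 (permutation p = 0.00051). Uterus and myometrium gave r = 0.781 (permutation p = 0.00113, adjusted 0.00424) and rho = 0.789 (permutation p = 0.00112). Endometrium and myometrium gave r = 0.837 (permutation p = 0.00028, adjusted 0.0014) and rho = 0.859 (permutation p = 0.00017). Among these 14 mice, much of the Lcn2 order was thus kept across tissues. The relations were chosen after the values were seen, and the permutations mixed WT and KO mice. Here and in the relations that follow, the p-values are therefore descriptions. Without the 2 mice farthest from the median the r values were 0.809, 0.767 and 0.842. Between uterus and endometrium, r was 0.967 within WT and 0.799 within KO, and 0.985 in rows A to C and 0.662 in rows D to F. The relations of uterus and of endometrium with myometrium gave r = 0.788 and 0.842 within WT (exact permutation p = 0.0341 and 0.0173). Within KO they gave 0.670 and 0.700 (exact permutation p = 0.111 and 0.0865).

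For Pglyrp1, uterus and endometrium gave r = 0.838 (permutation p = 0.00024, adjusted 0.0014) and rho = 0.771 (permutation p = 0.00194), and r = 0.818 without the 2 farthest mice. Within rows it was 0.955 in A to C and 0.240 in D to F, so the relation was carried by rows A to C. With myometrium, r was 0.529 for uterus and 0.588 for endometrium (adjusted permutation p = 0.112 and 0.0641). The matching rho values were 0.591 and 0.732, with adjusted permutation p of 0.0608 and 0.0122. For Wfdc2 the uterus and endometrium relation was r = 0.643 (adjusted permutation p = 0.023) and rho = 0.600 (adjusted permutation p = 0.0608), and r = 0.060 was found between uterus and myometrium. Neither Wfdc10 (r of 0.242 to 0.445) nor Slpi (r of -0.088 to 0.311) passed in any of its 3 relations.

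Lcn2 and Pglyrp1 also moved together within each tissue. Among 30 relations between pairs of the 5 genes, theirs gave r = 0.946 in uterus, 0.972 in endometrium and 0.859 in myometrium (adjusted permutation p = 0.00015, 0.00015 and 0.0016; n = 14 mice). The matching rho values were 0.881, 0.952 and 0.785, and without the 2 farthest mice the r values were 0.893, 0.944 and 0.769. Within rows A to C the r values were 0.943, 0.989 and 0.904, and within rows D to F they were 0.949, 0.949 and 0.768. Within WT they were 0.840, 0.978 and 0.900, and within KO 0.987, 0.945 and 0.670 (n = 7 mice each). The relation was thus weakest in KO myometrium, with rho = 0.464 and an exact permutation p of 0.105 for r. Over the 42 samples Pglyrp1 was the gene nearest to Lcn2, and Lcn2 the nearest to Pglyrp1, among 8178 compared (r = 0.95 for log2 CPM, and 0.893 for deviations from group means). Samples share animals and a library, so these likenesses are descriptions.

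**Figure D4:**
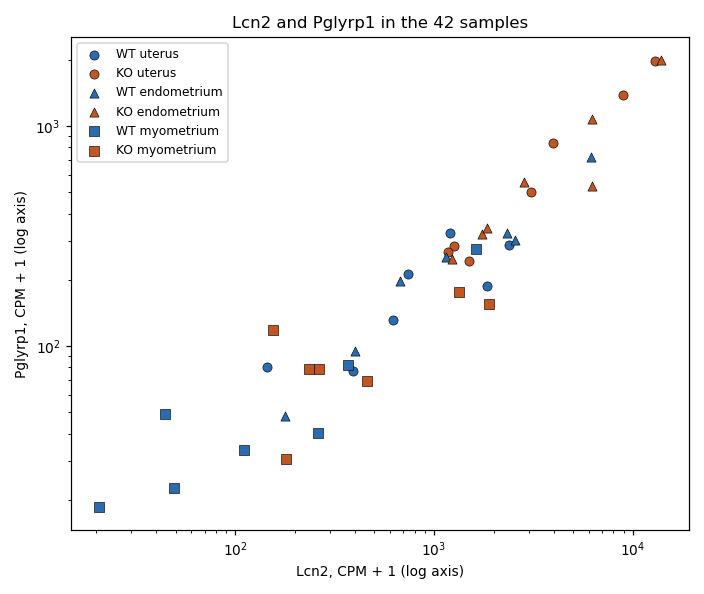
Pglyrp1 against Lcn2 in the 42 samples, each as CPM + 1 on log axes; marker shape gives the tissue, blue is WT and orange is KO. The points follow a single rising band from the WT myometria at the lower left to the endometrium and uterus of KO mouse 6 at the upper right.

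After each other, Lcn2 and Pglyrp1 were both nearest to Gsto1, a glutathione transferase (r = 0.899 and 0.892 for levels), and Cfb, complement factor B (r = 0.899 and 0.875). Wfdc2 was nearest to Gsto1 (r = 0.954), Cldn7, a tight junction claudin (0.943), and Rab25, an epithelial small GTPase (0.927). For Wfdc10 the nearest were Psmd3 (0.897), Syne4 (0.895) and Pllp (0.895). For Slpi they were Commd6 (0.786), Triap1 (0.773) and Gmfg (0.768). Once group means were removed, the gene nearest to Slpi was Msln (0.756), which encodes mesothelin, a surface protein of mesothelium.

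Markers of epithelium and neutrophils were set beside the animal-to-animal spread of Lcn2. The summed epithelial markers varied 3.13-fold among WT endometria and 2.37-fold among KO endometria, where Lcn2 varied 34.7-fold and 11.2-fold. Divided by the epithelial sum, Lcn2 varied 16.7-fold and 9.87-fold. In uterus the epithelial sum varied 1.81-fold in WT and 3.57-fold in KO, against 16.6-fold and 11.0-fold for Lcn2. A single epithelial marker can vary more than the sum: Krt19, a keratin, ranged from 46.9 to 1844 CPM among WT endometria. The part of epithelial content in the spread of Lcn2 was not tested.

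Of 13 neutrophil markers, Ltf is also made by uterine epithelium and was set aside. The other 12 summed to 0 to 14.0 CPM in WT endometrium, 2.67 to 38.2 CPM in KO endometrium, 10.4 to 130 CPM in WT uterus and 12.2 to 154 CPM in KO uterus. In myometrium they summed to 1.97 to 36.7 CPM in WT and 4.95 to 20.7 CPM in KO. Elane, neutrophil elastase, had no count in the 42 samples, Mmp8 had a single count, and Ngp and Camp were found in 1 and 3 samples. Other neutrophil markers were more frequent: Retnlg was found in 31 of the 42 samples, with up to 111 CPM in a KO uterus, Mmp9 in 29, Csf3r in 19, Mpo in 17, Cxcr2 in 16 and S100a8 in 14. Among endometria, the neutrophil sum was highest in KO mouse 9 (38.2 CPM), where Lcn2 was 1850 CPM, and was 13.6 CPM in that of KO mouse 6, where Lcn2 was 13896 CPM. The remaining KO endometria had sums of 2.67 to 6.92 CPM. Among uteri it was 154 CPM in KO mouse 9, 130 CPM in WT mouse 1 and 72.0 CPM in KO mouse 11, where Lcn2 was 1260, 392 and 8889 CPM. In KO mice 2 and 6 the uterine sum was 55.4 and 48.4 CPM, with Lcn2 at 3950 and 12942.5 CPM. In KO mice 4, 13 and 14 it was 37.7, 16.9 and 12.2 CPM, with Lcn2 at 1493, 3092 and 1180 CPM. In WT mouse 10, with the highest uterine Lcn2 in WT (2384 CPM), it was 21.6 CPM. The part of neutrophil content in the Lcn2 levels was not tested.

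The 2 beta-defensin genes were close to the counting floor, at which 3 counts correspond to 1.23 to 11.7 CPM depending on the sample, so they are given as raw counts. Defb1, the constitutively made epithelial beta-defensin, gave 22 counts in WT and 27 in KO uterus, 32 and 31 in endometrium, and 4 and 2 in myometrium, each over 7 mice. Every uterus and endometrium held at least 1 count, whereas 5 of 7 myometria in each genotype held none. The pooled WT to KO ratio of rates was 0.632 (0.343 to 1.15) in uterus and 1.61 (0.953 to 2.73) in endometrium, with exact 95% intervals that cover counting error only.

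Defb28, a beta-defensin of the chromosome 2 group, was the only one of the 7 genes without overlap between genotypes. In WT uterus it had 5, 5, 4, 6, 2, 4 and 3 counts in mice 1, 3, 5, 7, 8, 10 and 12, a total of 29. In KO uterus it had 1 count in mouse 2, 1 in mouse 9 and none in the other 5 mice, a total of 2. Every WT uterus was above every KO uterus in CPM, as was so, in either direction, for 0.0540% of the 12959 genes tested; in endometrium and myometrium, where none of the 7 separated, the share was 0.115% and 0.077%. The pooled rate was 11.2 times higher in WT (exact 95% counting interval 2.85 to 97.3), yet the edgeR adjusted p was 0.387. In endometrium the totals were 23 in WT and 10 in KO (ratio 3.60, 1.65 to 8.46), with no count in 2 mice of each genotype. In myometrium they were 10 and 4 (ratio 2.17, 0.626 to 9.48). Defb28 was chosen with these values in view, so the uterine separation is a description, and it rests on 31 counts in all.

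**Figure D5:**
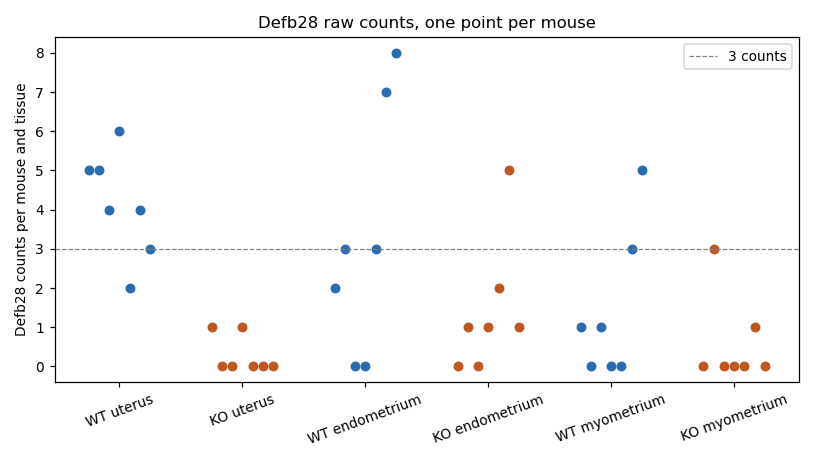
Raw Defb28 counts for each mouse in the 6 groups, with a dashed line at 3 counts; blue is WT and orange is KO. WT uteri hold 2 to 6 counts and KO uteri 0 or 1, while the genotypes overlap in endometrium and myometrium.

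Beside these 7, a list of 72 other genes of mucosal defence was examined, 71 of which were in the table. Between layers, 11 of 29 tested rose in WT endometrium and none fell, and in KO 14 of 31 rose and 2 fell. Of all genes tested, 6.81% rose in WT and 10.6% in KO, and 13.2% and 19.3% were called in either direction. The list was chosen with earlier results of these data known, so nothing is read from its counts. The median log2 difference of the list was 1.26 in WT and 1.38 in KO, against 0.01 and 0.08 over all genes tested. Among the called genes of highest abundance in WT were Ltf (lactotransferrin, an iron-binding protein; log2 difference 2.51 ± 0.63), C3 (complement component; 1.58 ± 0.53), Clu (clusterin; 1.93 ± 0.30) and Pigr (the polymeric immunoglobulin receptor; 2.76 ± 0.36). The WAP genes Wfdc18 (2.99 ± 0.88) and Wfdc15b (2.26 ± 0.46) rose as well. In KO, Ltf (2.98 ± 0.67), C3 (2.24 ± 0.26), Clu (1.98 ± 0.40), Cfb (3.15 ± 0.62), Pigr (2.56 ± 0.47) and Sftpd (surfactant protein D, a collectin; 2.46 ± 0.42) rose. Itln1 (intelectin, a lectin; -2.59 ± 0.72) and Tlr4 (the lipopolysaccharide receptor; -1.18 ± 0.37) fell.

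The counts by group stand beside the same shares of all genes that rose, 6.81% in WT and 10.6% in KO, and are likewise descriptions. Of the WAP genes tested, 3 of 6 rose in WT and 4 of 7 in KO, out of 20 in the table. Among epithelial transport, mucin and complement genes, 6 of 6 rose in WT and 5 of 6 in KO. Of 17 measured iron-binding, enzyme and lectin genes, 2 of 8 tested rose in WT, and 3 of 8 rose and 1 fell in KO. Of 10 Toll-like and cytokine signalling genes, 0 of 9 tested passed in WT, and 2 of 10 rose and 1 fell in KO. The 15 further beta-defensins and 3 further peptidoglycan recognition genes of the list all missed the count filter in both layer comparisons. Among the genes of these families examined here, only Pglyrp1, Defb1 and Defb28 were tested between layers. Between genotypes edgeR called none of the list in any tissue. The smallest unadjusted p in uterus was that of Wfdc3, a WAP gene, with 11.5 ± 7.60 CPM in WT and 3.30 ± 1.41 CPM in KO (log2 difference -1.78 ± 0.49, edgeR adjusted p = 0.570). In endometrium it was that of Wfdc1 (-1.14 ± 0.47, edgeR adjusted p = 0.908). In myometrium it was again Wfdc3, at 3.48 ± 3.43 CPM in WT and with no count in the 7 KO mice (edgeR adjusted p = 0.844).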

How the data were processed

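Uterus, endometrium and myometrium of 14 mice were sequenced by STRT as a 46-plex library, and the deposited table gave raw counts per gene that the authors made after joining reads by molecular identifier and aligning them to mm9. The study's methods name Homer for counting, while the labels' processing notes name HTSeq; strand use and treatment of reads mapping to several genes are not given in the sources used here. From the 45 libraries, repeat libraries of an animal and tissue were summed (3 for KO mouse 13 endometrium, 2 for WT mouse 12 myometrium), which left 42 samples. The 92 ERCC spike-in rows were kept out of library sizes.

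Comparisons used edgeR 4.0.16 (quasi-likelihood test, TMM) after removing genes that reached 1 CPM in fewer than 5 of the samples fitted, with Benjamini-Hochberg adjusted p under 0.05, in R 4.3.3. Alternatives were DESeq2 1.42.0, other scalings, filters and thresholds, plate rows, a block on the mouse and omission of each mouse. The scripts were tested on simulated data. Same-mouse endometrium and myometrium, paired by the labels' mouse identity, had correlated deviations from group means (mean r 0.086 in WT and 0.128 in KO, against -0.015 and -0.021 between different mice). Each mouse is 1 replicate, with 7 of each genotype per the labels; the series' design text names 8 of each, and no further animals were analysed here. Libraries held 256298 to 1222627 counts, and intervals cover counting error only. Sequences are from RefSeq tables.

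The 7 genes, the wider gene lists and the marker lists were chosen with earlier results of these data known. Genes were named by rule: all 7; from the wider list, up to 6 called genes per direction and layer comparison by abundance, and the smallest p per genotype comparison; and the 3 nearest genes by correlation. The correlations across mice, and means without WT mouse 5 myometrium or KO mouse 13 endometrium, were chosen after the values were seen.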

Additional observations from a re-analysis of the deposited data

Results flagged for a closer look

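Groups of 7 mice were screened for a value far from the rest by Dixon's criterion on log2(CPM + 1), and 2 of 42 gene and group combinations stood out, where chance gives about 1 in 20. Wfdc2 in WT endometrium was lowest in mouse 3, at 8.86, the sample that also held the highest smooth muscle sum of the WT endometria (13303 CPM). Defb1 in WT myometrium was highest in mouse 8, at 2.79, which corresponds to 3 counts, where 5 of the other 6 mice had none.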

How the results depend on the processing

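Of the 7 genes, 5 were called between layers in WT, and this number was 3 with DESeq2, 3 with the filter at 10 CPM, 0 in plate rows A to C and 1 to 5 when a mouse was left out. In KO it was 4 or 5 under every alternative run. With the mouse as a replicate block it was 5 in WT and 5 in KO, and 0 for the interaction, for which the block fit called 10 genes of all tested against 0 without it. Between genotypes no alternative called any of the 7 in uterus or endometrium; in myometrium rows D to F alone (2 WT and 4 KO mice) called 2, Slpi and Lcn2, among 49 of 12991 genes (0.377%).

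Directions between genotypes turned in these cases, none of them called. In uterus, spike-in scaling gave -0.0435 for Wfdc2 and -0.28 for Wfdc10, and rows D to F gave -0.0021 for Wfdc2, -0.55 for Wfdc10 and -0.0451 for Slpi. Leaving out a mouse gave Wfdc10 in uterus -0.37 to 0.48. In endometrium, rows D to F gave -0.11 for Pglyrp1 and -0.15 for Lcn2. In myometrium, rows A to C gave -1.13 for Slpi, rows D to F gave 0.82 for Wfdc2 and 1.02 for Wfdc10, and the exact permutation test on log2(CPM + 1) gave 0.17 and 0.12. Leaving out a mouse there gave Wfdc2 -0.75 to 0.77, Wfdc10 -1.21 to 1.11 and Slpi -0.0822 to 1.68. The Wfdc10 interaction was -0.49 in rows D to F. The causes were not tested. At 256298 to 1222627 counts per library, Defb1 gave at most 9 and Defb28 at most 8 counts in a sample.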
